A study of Sus scrofa with 9 samples.

Results

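BNIP3 and 9 other genes known for their response to low oxygen (BNIP3L, VEGFA, ADM, EGLN3, ANKRD37, NDRG1, P4HA1, KDM3A and HIF3A) were examined in pig liver. They were chosen by symbol, with earlier results of these data known. All 10 were found among the 29837 symbols of the deposited count table. Of the 10, 9 had enough reads for a test and ANKRD37 did not. The livers came from 4 MIDY pigs and 5 wild type (WT) pigs, with 1 RNA sequencing library per animal. All 9 animals were females aged 2 years. MIDY is a diabetes of youth caused by a mutant insulin gene (INS). These pigs carry a transgene with the insulin mutation C94Y, are diabetic and received insulin of both short and long action. WT pigs carry no such transgene, so genotype, diabetes and insulin treatment cannot be told apart. Pigs of both groups were fed daily and drank freely under controlled housing. The sources used here do not give the promoter or line of the transgene, the litters or the feeding state at sampling.

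As background, cells sense oxygen through prolyl hydroxylases of the EGLN family, which mark the alpha subunits of the hypoxia-inducible factors (HIF) for breakdown through VHL. When oxygen is short the alpha subunits pair with ARNT and raise the transcription of genes for glycolysis, blood vessel growth, matrix modification and mitochondrial turnover. In liver, oxygen falls along the blood's path towards the central vein, and several of these genes also answer to fasting or hormones.

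Libraries held 14819335 to 18708976 counts in MIDY and 14115415 to 19533463 in WT. Levels are given as CPM, counts per 1e6 on scaled library sizes, and a gene was called at a Benjamini-Hochberg adjusted p below 0.05 over all 14100 genes tested with edgeR. The sum of 7 hepatocyte markers, ALB and APOA1 among them, was 148100 to 179000 CPM in MIDY and 119700 to 178900 CPM in WT. ALB made up most of it, averaging 117600 CPM in MIDY and 106600 CPM in WT. Of the 7 markers, 4 had fitted log2 fold changes above 0 and 3 below. Summed markers of 7 of the 9 cell classes had the lower mean in MIDY, and those of hepatocytes and endothelium the higher one. T and NK cell markers (10.1 to 11.8 CPM in MIDY, 13.4 to 24.1 CPM in WT) and neutrophil markers (4.20 to 5.99 CPM in MIDY, 6.33 to 11.8 CPM in WT) did not overlap between groups. Stellate cell and fibroblast markers averaged 342 CPM in MIDY and 495 CPM in WT, and B and plasma cell markers 17.4 CPM in MIDY and 30.9 CPM in WT. Kupffer cell and macrophage markers averaged 477 CPM in MIDY and 589 CPM in WT. Cholangiocyte markers averaged 31.2 CPM in MIDY and 47.4 CPM in WT, of which SPP1 made 7.91 and 22.4 CPM. Erythroid markers averaged 292 CPM in MIDY and 648 CPM in WT, of which HBB made 278.1 and 618.5 CPM. The erythroid sums of WT livers ran from 69.1 to 1493 CPM and enclosed those of MIDY livers (162.3 to 536.5 CPM). The groups overlapped in the stellate, B, Kupffer, cholangiocyte and erythroid classes. By exact two-sided permutation the p was 0.0238 for T and NK cells, 0.0317 for neutrophils and 0.0476 for both stellate and B cells. By the same permutation it was 0.111 for Kupffer cells, 0.127 for cholangiocytes and 0.365 for erythroid cells. None of 13 library measures passed after adjustment (lowest adjusted p = 0.155). The part of these markers in the results that follow was not tested. CPM do not account for transcript length, so levels are compared between animals and not between genes.

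BNIP3 rose in MIDY liver, and it was the only one of the 9 tested genes to be called. BNIP3 encodes a receptor in the outer mitochondrial membrane that binds LC3-family proteins and so delivers mitochondria to autophagosomes. It stood at 73.9, 81.6, 74.0 and 70.7 CPM in the 4 MIDY livers, against 53.0, 50.5, 55.4, 51.8 and 52.4 CPM in the 5 WT livers. The lowest MIDY liver lay well above the highest WT liver, and the spread within each group was small. Mean levels were 75.1 ± 4.64 CPM in MIDY (SD, n = 4) and 52.6 ± 1.83 CPM in WT (SD, n = 5). The fold change was 1.43, or 0.51 ± 0.09 on the log2 scale (SE; 95% interval 0.33 to 0.70; edgeR adjusted p = 0.0201). In a bulk sample, more RNA per cell and more cells of a type cannot be told apart.

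This was 1 gene higher among 9, beside a background of 0.816% of all tested genes called higher. Of the 9, 0 were called lower, beside 0.355% of all tested genes (1.17% in either direction). The genes were chosen with earlier results of these data known, so these shares do not test whether the group stands out. BNIP3 ranked 40 by p-value among all tested genes. Its change was among the smaller ones called: 106 of the 115 genes called higher had a larger fold change and 8 a smaller one. With 1 library removed at a time the rise was 0.47 to 0.53 log2, but the call held in 5 of the 9. It was lost in the fits without MIDY replicate 2 (edgeR adjusted p = 0.0694) and without MIDY replicate 3 (0.0569), and likewise without WT replicate 2 (0.0530) and without WT replicate 5 (0.0516).

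BNIP3L, also called NIX, is the close relative of BNIP3 and clears mitochondria from maturing red blood cells. It measured 97.3, 107, 102 and 92.7 CPM in MIDY livers, against 114, 92.3, 106, 78.4 and 77.2 CPM in WT livers. The MIDY values all fell inside the WT range. The log2 fold change was 0.09 ± 0.13 (SE; 95% interval -0.18 to 0.37; edgeR adjusted p = 0.773). The difference between both genes was examined through their ratio within each library, which does not depend on scaling. The log2 ratio of BNIP3 to BNIP3L counts was -0.41 ± 0.04 in MIDY (SD, n = 4) and -0.81 ± 0.23 in WT (SD, n = 5). The ratios of the groups did not overlap, at -0.46 to -0.39 in MIDY and -1.10 to -0.56 in WT. The difference of 0.40 had an exact two-sided permutation p = 0.0238, and an adjusted p = 0.131 over the 11 ratios compared. BNIP3 lies on chromosome 14 (140362123 to 140371951 on Sscrofa11.1) and BNIP3L on the same chromosome (10318688 to 10345689), and no other gene model overlaps either.

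**Figure D1:**
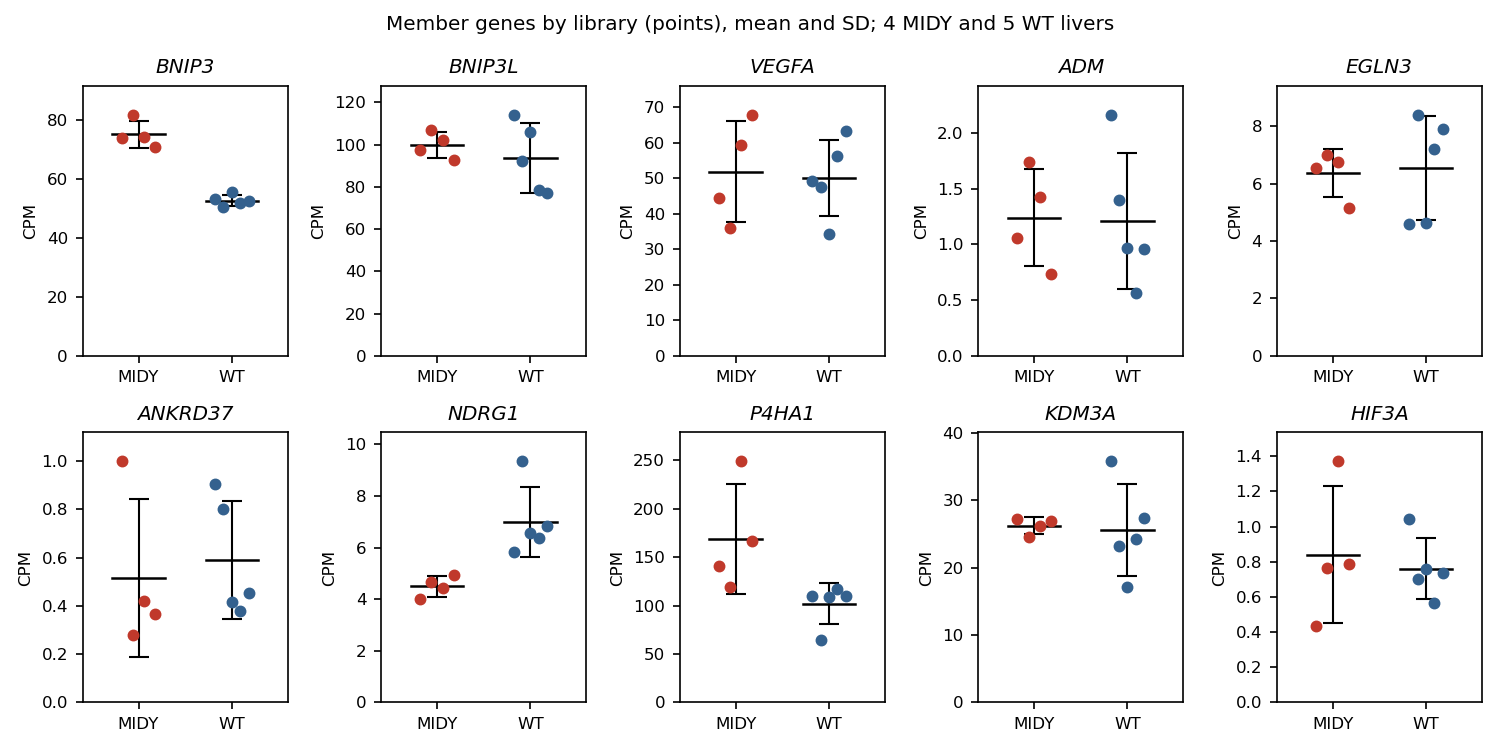
CPM of each of the 10 genes in every library (points), with the mean and SD as black lines, MIDY on the left and WT on the right of each panel; every vertical axis starts at 0. BNIP3 and P4HA1 show all 4 MIDY livers above all 5 WT livers, NDRG1 shows all 4 MIDY livers below, and the other 7 genes overlap.

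NDRG1 and P4HA1 separated the groups without passing the test. NDRG1 encodes a cytoplasmic stress-response protein that low oxygen and differentiation raise in many cell types. It measured 3.99, 4.65, 4.42 and 4.93 CPM in MIDY livers, against 5.84, 9.34, 6.56, 6.37 and 6.83 CPM in WT livers. All 4 MIDY livers lay below all 5 WT livers. The log2 fold change was -0.64 ± 0.17 (SE; 95% interval -1.01 to -0.27; edgeR adjusted p = 0.0928). The WT mean included 1 high liver, WT replicate 2, without which the log2 fold change was -0.51 (edgeR adjusted p = 0.185).

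P4HA1 encodes the catalytic alpha subunit of the prolyl 4-hydroxylase that stabilises collagen. It measured 141, 119, 249 and 167 CPM in MIDY livers, against 110, 64.1, 109, 117 and 110 CPM in WT livers. The lowest MIDY value stood just above the highest WT value, and the MIDY livers were spread more widely (CV 33.6%) than the WT livers (CV 21.0%). The log2 fold change was 0.73 ± 0.22 (SE; 95% interval 0.24 to 1.22; edgeR adjusted p = 0.145). Leaving out MIDY replicate 3, the highest, gave 0.48 (edgeR adjusted p = 0.312), and leaving out WT replicate 2, the lowest, gave 0.60 (edgeR adjusted p = 0.206). DESeq2 called both P4HA1 and NDRG1 (adjusted p = 0.0374 and 0.0283), and it was the only 1 of 17 alternatives to call either. Over all genes DESeq2 called 355 higher and 284 lower, beside 115 and 50 by edgeR.

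Counted over the 9 tested genes, 2 stood higher in MIDY and 1 lower with no overlap between groups, beside 3.72% and 2.63% of all tested genes (6.35% in either direction). At an unadjusted p below 0.05 the same counts were 2 higher and 1 lower, beside 8.15% and 8% of all tested genes. The median log2 fold change of the 9 genes was 0.05, and that of all tested genes -0.0046. The gene model of NUDT13 overlaps P4HA1 (chromosome 14, 75827207 to 75919121), and its log2 fold change was 0.15 ± 0.16 (SE; edgeR adjusted p = 0.702). A model with 0 counts in all libraries overlaps NDRG1 (chromosome 4, 8014445 to 8069335).

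**Figure D2:**
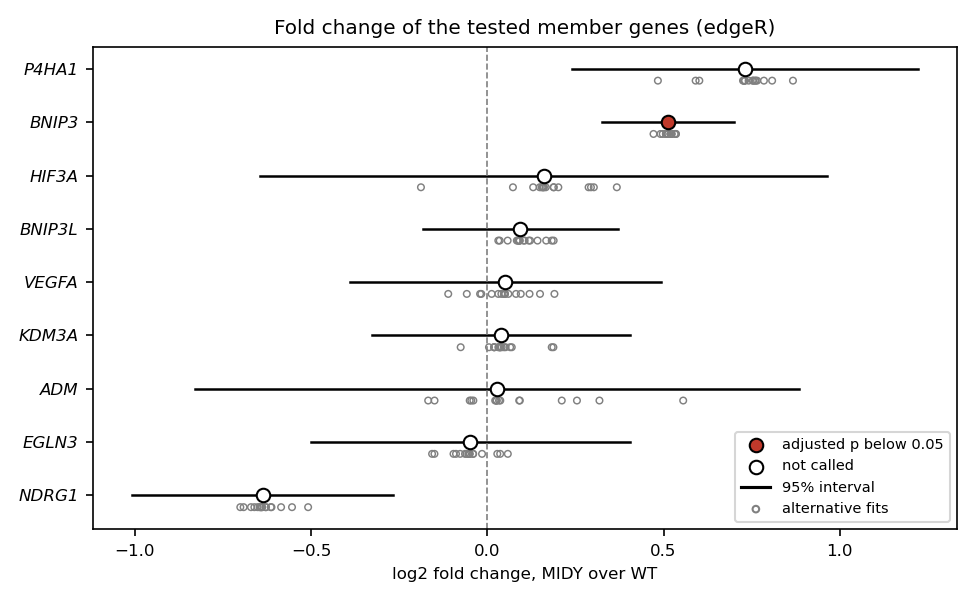
Log2 fold change of MIDY over WT for the 9 tested genes (large points) with 95% intervals (lines) and the values from the alternative fits (small open points). BNIP3 is the only filled point; the intervals of P4HA1 and NDRG1 lie on either side of 0, and those of the other 6 genes span 0.

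The secreted signals of the group were not called. VEGFA, the growth factor that drives blood vessel sprouting, measured 44.3, 36.1, 59.2 and 67.8 CPM in MIDY livers, against 49.2, 47.4, 34.3, 56.2 and 63.2 CPM in WT livers. Both groups covered almost the same range. Its log2 fold change was 0.05 ± 0.20 (SE; 95% interval -0.39 to 0.49; edgeR adjusted p = 0.933). ADM, which encodes the vasodilator peptide adrenomedullin, had few counts: 17, 25, 27 and 14 counts in MIDY livers and 31, 28, 14, 9 and 17 counts in WT livers, or 1.24 ± 0.43 CPM in MIDY (SD, n = 4) and 1.21 ± 0.60 CPM in WT (SD, n = 5). At this depth its 95% interval on the log2 scale reached from -0.83 to 0.89, so a change of moderate size in either direction was not detectable. VEGFA lies on chromosome 7 (38746393 to 38762282) and ADM on chromosome 2 (49229223 to 49231521).

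The regulators of the response did not separate the groups either. EGLN3, an oxygen-sensing prolyl hydroxylase that HIF itself induces, measured 6.55, 7.01, 6.74 and 5.14 CPM in MIDY livers, against 4.59, 8.39, 4.62, 7.19 and 7.91 CPM in WT livers. The WT livers fell into lower and higher values that enclosed every MIDY liver. Its log2 fold change was -0.05 ± 0.21 (SE; 95% interval -0.50 to 0.40; edgeR adjusted p = 0.939). KDM3A, a histone lysine demethylase induced by HIF, measured 27.3, 24.6, 26.2 and 27.0 CPM in MIDY livers, against 35.8, 23.2, 17.1, 24.3 and 27.4 CPM in WT livers. Its means nearly coincided, and the spread was smaller in MIDY (CV 4.59%) than in WT (CV 26.7%), a difference in spread that was not tested. The log2 fold change of KDM3A was 0.04 ± 0.17 (SE; 95% interval -0.33 to 0.40; edgeR adjusted p = 0.939). EGLN3 lies on chromosome 7 (65805513 to 65833536) and KDM3A on chromosome 3 (58300109 to 58355000).

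HIF3A encodes the third HIF alpha subunit, some forms of which restrain the others. It had 7, 11, 26 and 15 counts in MIDY livers and 15, 14, 11, 9 and 13 counts in WT livers. The highest and the lowest CPM of HIF3A were both in MIDY livers. Its log2 fold change was 0.16 ± 0.37 (SE; 95% interval -0.65 to 0.96; edgeR adjusted p = 0.883), and the model LOC100513542, at 9.74 ± 1.28 CPM in MIDY (SD, n = 4) and 9.62 ± 1.28 CPM in WT (SD, n = 5), overlaps it on chromosome 6 (52342893 to 52376339). ANKRD37, an ankyrin repeat protein gene known as a direct HIF target, had 16, 4, 8 and 7 counts in MIDY livers and 13, 16, 6, 6 and 8 counts in WT livers. These counts were too low for the test, and the groups overlapped. Without the low-count filter its log2 fold change was -0.19 ± 0.51 (SE; edgeR adjusted p = 0.909). UFSP2 overlaps ANKRD37 on chromosome 15 (46445789 to 46450046), and reads of overlapping models may not be told apart, since the sources used here do not say whether the counting used strand.

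Ratios of the other genes to a relative of the same family, or of P4HA1 to its partner subunit, gave no call. The log2 ratio of NDRG1 to NDRG3 was -0.98 ± 0.16 in MIDY (SD, n = 4) and -0.34 ± 0.24 in WT (SD, n = 5). These ratios did not overlap, and the permutation p = 0.00794 was the smallest that the exact test can give, but the adjusted p = 0.0873 over 11 ratios did not pass. The difference was of like size against NDRG2 (-0.63, exact permutation p = 0.0397, adjusted p = 0.146). For P4HA1 the log2 ratio differed by 0.50 against P4HA2, its sister alpha subunit, and by 0.48 against P4HB, its beta subunit (exact permutation p = 0.159 and 0.262). EGLN3 to EGLN1, KDM3A to KDM3B and JMJD1C, HIF3A to HIF1A and EPAS1, and VEGFA to VEGFB had differences of -0.36 to 0.29 and adjusted p of 0.453 to 0.659 (exact permutation).

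**Figure D3:**
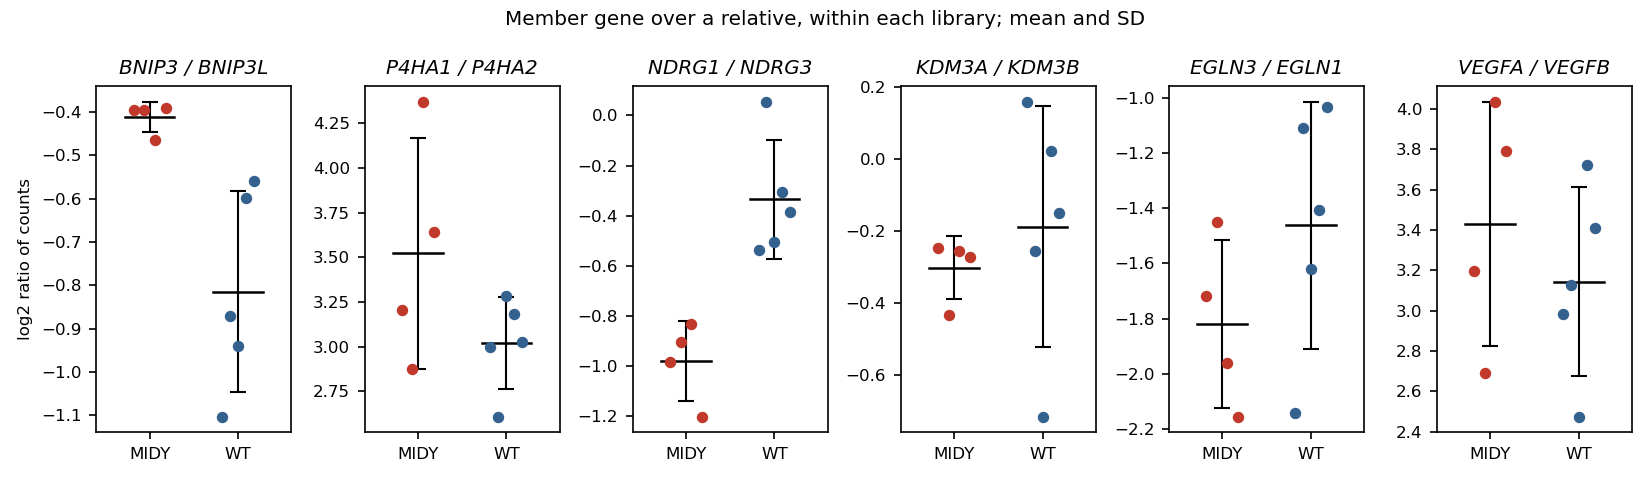
Log2 ratio of the counts of a hypoxia response gene to those of a relative within each library (points), with mean and SD, for 6 of the 11 ratios, MIDY on the left and WT on the right; the vertical axes differ. The ratios of BNIP3 to BNIP3L and of NDRG1 to NDRG3 do not overlap between groups, and the other 4 do.

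The 10 genes did not move as a block from liver to liver. Over the 45 pairs, the median Pearson r of log2 CPM across the 9 libraries was 0.06, and 23 pairs were above 0. With the group means taken out the median was -0.05, and 20 pairs were above 0. NDRG1 ran against BNIP3 (r = -0.87) and against P4HA1 (r = -0.82) over the 9 libraries, and with the group means taken out these became -0.31 and -0.59. BNIP3 and P4HA1 had r = 0.66, which became -0.12 with the group means taken out. The pair BNIP3L and ADM kept r = 0.76 within groups, whereas BNIP3 and VEGFA ran apart there (r = -0.79). These values describe 9 libraries that share 2 groups and a scaling step, and ADM, ANKRD37 and HIF3A rest on few counts.

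**Figure D4:**
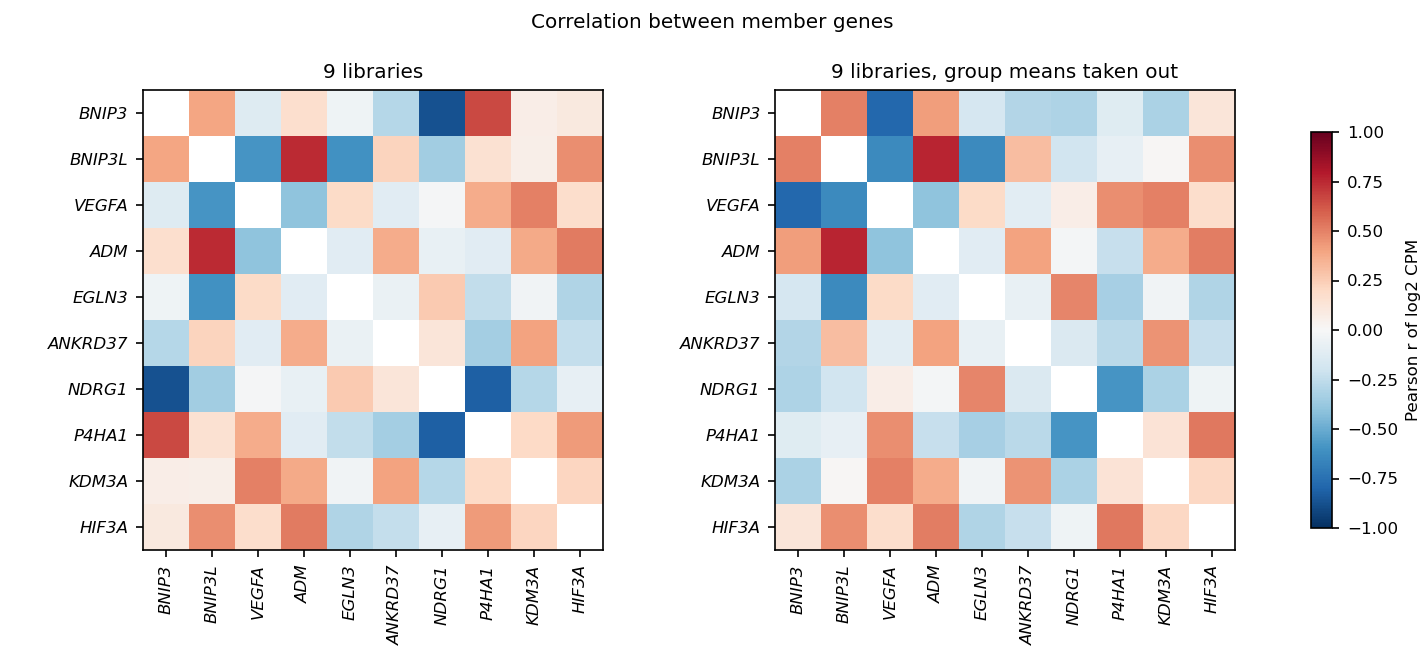
Pearson r of log2 CPM between each pair of the 10 genes over the 9 libraries, on the left as measured and on the right with the group means taken out; red is positive, blue is negative and the diagonal is blank. The blue cells of NDRG1 with BNIP3 (-0.87) and with P4HA1 (-0.82) on the left are paler on the right, where positive and negative pairs are mixed.

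The 5 genes whose log2 CPM followed BNIP3 most closely over the 9 libraries, among 11504 candidates, were ATG2A (r = 0.99), ATE1 (0.98), TMEM245 (0.98), ADAMTS17 (0.97) and INSR (0.96). ATG2A, a lipid transfer protein gene of autophagosome growth, measured 31.0, 36.9, 33.4 and 27.4 CPM in MIDY livers, against 17.7, 16.5, 19.3, 15.8 and 18.5 CPM in WT livers. In both groups the liver with the most BNIP3 also had the most ATG2A, and with the group means taken out their r was 0.88. For ADAMTS17, a secreted metalloprotease gene, r was 0.42 with the group means taken out, and for INSR, the insulin receptor gene, it was 0.77. For ATE1 it was 0.60 and for TMEM245 0.66. ATG2A, ATE1, TMEM245 and ADAMTS17 were called higher in MIDY (log2 fold change 0.87, 0.60, 0.46 and 4.07), and INSR was not called (0.42 ± 0.10, SE; edgeR adjusted p = 0.0549). The 5 genes were picked with the group means left in, which favours genes that differ between groups as BNIP3 does. Their calls follow largely from that choice and are no separate result. The r with the group means taken out come from the same 9 libraries that picked the genes, so they are no separate result either.

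Genes that act upstream in the pathway gave no call. Of 12 genes of HIF subunits and oxygen sensing, 10 were tested. By edgeR 0 were called higher and 0 lower, beside 0.816% and 0.355% of all tested genes. With an unadjusted edgeR p below 0.05 there were 2 higher and 0 lower, beside 8.15% and 8% of all tested genes. DESeq2 called 0 of the 10 genes in either direction, beside 355 higher and 284 lower of the 14100 genes in its fit. The tested genes of this list had a median log2 fold change of 0.04. HIF1AN, the asparagine hydroxylase that blocks HIF activity, measured 62.0, 57.8, 57.8 and 57.3 CPM in MIDY livers, against 51.4, 50.3, 46.3, 51.3 and 48.1 CPM in WT livers. Its groups did not overlap, yet the log2 fold change of 0.25 ± 0.09 was not called (SE; edgeR adjusted p = 0.183). EGLN1, the main oxygen-sensing hydroxylase, had a log2 fold change of 0.35 ± 0.13, OS9 one of 0.25 ± 0.13 and EPAS1, the HIF-2 alpha subunit, one of -0.20 ± 0.10 (SE; edgeR adjusted p = 0.208, 0.354 and 0.375).

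Among hypoxia targets of glucose metabolism, 1 of 21 tested genes was called higher and 1 lower, beside 0.816% and 0.355% of all tested genes. At an unadjusted p below 0.05 there were 4 higher and 3 lower, beside 8.15% and 8% of all tested genes, and the list's median log2 fold change was 0.10. LDHA, the lactate dehydrogenase subunit that favours lactate formation, measured 76.9, 90.1, 81.6 and 64.0 CPM in MIDY livers, against 44.1, 58.0, 38.2, 51.6 and 40.1 CPM in WT livers. All MIDY livers lay above all WT livers, at a log2 fold change of 0.75 ± 0.14 (SE; edgeR adjusted p = 0.0273). PFKFB3, which makes the activator of phosphofructokinase, measured 2.06, 2.50, 2.48 and 3.09 CPM in MIDY livers, against 7.44, 5.35, 9.11, 4.92 and 6.95 CPM in WT livers. It fell by 1.41 ± 0.22 log2 (SE; edgeR adjusted p = 0.0144), so these HIF targets changed in opposite directions. LDHA lost its call in the fits without MIDY replicate 2 or 3 and in those without WT replicate 3 or 5 (highest edgeR adjusted p = 0.0892), whereas PFKFB3 kept its call whichever of the 9 libraries was removed. GPI (0.50 ± 0.15), SLC2A3 (-0.80 ± 0.25), HK1 (-0.41 ± 0.14) and PDK1 (0.35 ± 0.12) missed the threshold (log2 ± SE; edgeR adjusted p = 0.123, 0.142, 0.178 and 0.184).

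Of 34 tested genes among the other hypoxia targets, edgeR called 1 higher and 0 lower, beside 0.816% and 0.355% of all tested genes. With an unadjusted edgeR p below 0.05 there were 3 higher and 1 lower, beside 8.15% and 8% of all tested genes. The list's median log2 fold change was 0.03. The called gene was MXI1, a repressor that opposes MYC, at 30.4, 58.4, 44.2 and 40.0 CPM in MIDY livers, against 28.2, 22.4, 28.5, 24.5 and 21.9 CPM in WT livers. The lowest MIDY liver stood close to the highest WT liver. Its log2 fold change was 0.79 ± 0.17 (SE; edgeR adjusted p = 0.0434). MXI1 was called without MIDY replicate 1 or WT replicate 1 and lost its call when any of the other 7 libraries was removed (highest edgeR adjusted p = 0.113). TFRC, the transferrin receptor, averaged 25.8 ± 5.83 CPM in MIDY (SD, n = 4) and 57.9 ± 24.1 CPM in WT (SD, n = 5) and was not called (edgeR adjusted p = 0.101). INSIG2 (0.52 log2), ZNF395 (0.32 log2) and RSBN1 (0.22 log2) lay above 0 and were not called (adjusted p by edgeR 0.144, 0.293 and 0.340).

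The partners of BNIP3 in mitochondrial turnover were not called. All 26 genes for mitophagy and BCL2-family partners were tested. By edgeR 0 were called higher and 0 lower, beside 0.816% and 0.355% of all tested genes. With an unadjusted edgeR p below 0.05 there were 4 higher and 1 lower, beside 8.15% and 8% of all tested genes. DESeq2 called 0 of the 26 genes in either direction, beside 355 higher and 284 lower of the 14100 genes in its fit. The log2 fold changes of the 26 genes ran from -0.45 to 0.37 with a median of 0.04. BCL2L1, the anti-apoptotic BCL-xL gene, measured 4.49, 4.58, 5.00 and 4.20 CPM in MIDY livers, against 5.14, 6.84, 7.25, 5.48 and 6.44 CPM in WT livers. Its groups did not overlap, and the log2 fold change was -0.45 ± 0.16 (SE; edgeR adjusted p = 0.190). The mitophagy receptor BCL2L13 (0.33 ± 0.12), the cargo receptor TAX1BP1 (0.36 ± 0.14) and MAP1LC3B, an LC3 gene (0.28 ± 0.13), had fitted values above 0 (log2 ± SE; edgeR adjusted p = 0.226, 0.241 and 0.291).

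A list of VEGF and adrenomedullin genes held other VEGF ligands as well as receptors. Of its 13 tested genes, 2 had fitted values above 0 and 11 below, beside 49.3% of all tested genes above 0. The list's median log2 fold change was -0.27. By edgeR 1 was called lower and 0 higher, beside 0.355% and 0.816% of all tested genes. With an unadjusted edgeR p below 0.05, 4 were lower and 0 higher, beside 8% and 8.15% of all tested genes. DESeq2 called 2 lower, beside 284 of the 14100 genes in its fit. NRP1, the neuropilin co-receptor of VEGFA, measured 58.1, 59.1, 60.3 and 63.4 CPM in MIDY livers, against 86.8, 95, 75.0, 83.2 and 82.0 CPM in WT livers. It fell by 0.49 on the log2 scale with no overlap between groups (SE 0.09; edgeR adjusted p = 0.0310). Scaled by total counts alone it was not called (edgeR adjusted p = 0.0983), and with 1 library removed it kept the call in 3 of 9 fits, those that dropped MIDY replicate 4 or either of WT replicates 1 and 3. FLT1, a VEGFA receptor, measured 39.7, 32.8, 36.8 and 37.1 CPM in MIDY livers, against 45.2, 44.0, 56.6, 47.0 and 56.4 CPM in WT livers and was not called (-0.45 ± 0.11 log2, SE; edgeR adjusted p = 0.0796). The log2 fold change of KDR, the main VEGFA receptor of endothelium, was 0.0014 ± 0.10 (SE). CALCRL (-0.27 ± 0.10) and RAMP1 (-1.08 ± 0.41), which encode parts of the receptors for adrenomedullin and related peptides, and FLT4 (-0.18 ± 0.09) missed the threshold (log2 ± SE; edgeR adjusted p = 0.209, 0.220 and 0.340). Endothelial markers were set beside these receptor genes by their separate values only. Of 11 such markers, 9 had fitted values below 0 (median -0.15 log2). With an unadjusted edgeR p below 0.05, 3 were lower and 1 higher, beside 8% and 8.15% of all tested genes. Of the 11, 1, EMCN, was called lower (-0.74 ± 0.14 log2, SE; edgeR adjusted p = 0.0273), beside 0.355% of all tested genes. EMCN and PECAM1 (-0.24 ± 0.10 log2, SE; edgeR adjusted p = 0.271) did not overlap between groups. These were 2 of the 11 lower in MIDY without overlap, beside 2.63% of all tested genes. The summed level of the 11 markers did overlap, at 727 to 821 CPM in MIDY and 703 to 843 CPM in WT. That sum includes STAB2, at 261.5 ± 36.8 CPM in MIDY (SD, n = 4) and 200.4 ± 20.2 CPM in WT (SD, n = 5). STAB2 (0.38 ± 0.12) and STAB1 (0.18 ± 0.14) were the 2 markers above 0, and neither was called (log2 ± SE, edgeR adjusted p = 0.144 and 0.554). The part of endothelial cells in these values was not tested.

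**Figure D5:**
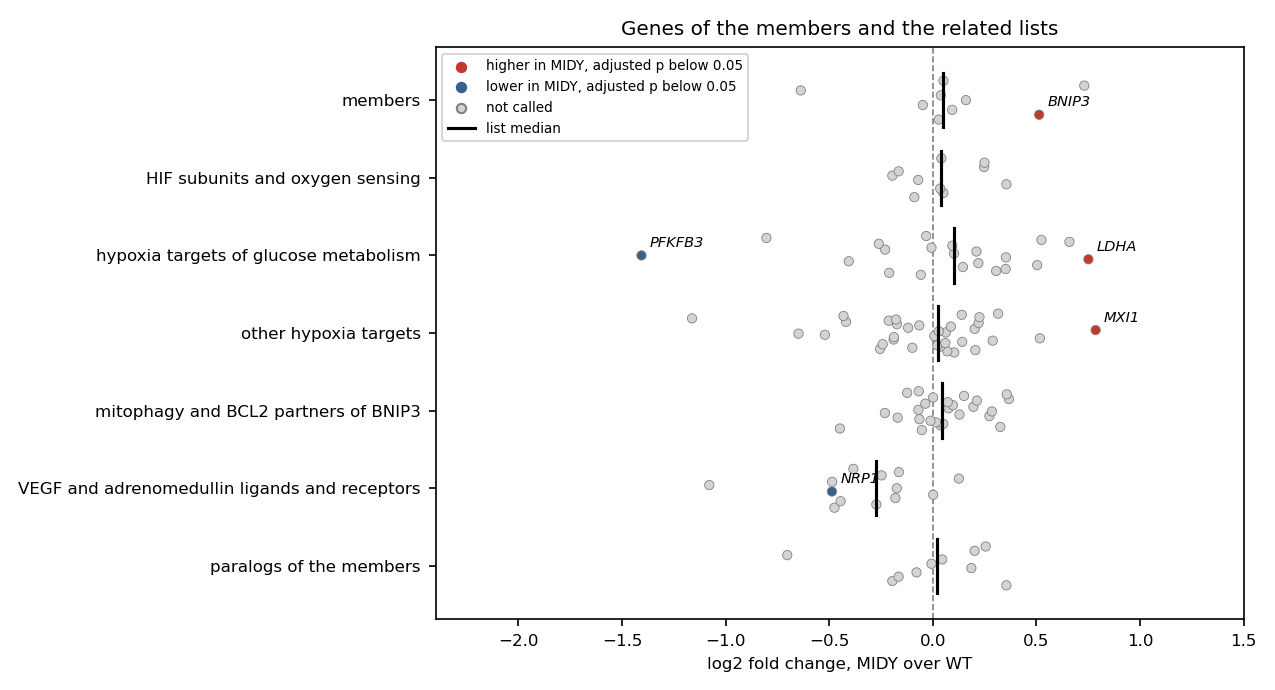
Log2 fold change of MIDY over WT for each tested gene (points) of the hypoxia response genes and the 6 related lists, with list medians as black bars and called genes coloured and named. BNIP3, LDHA and MXI1 lie to the right of 0, PFKFB3 and NRP1 to the left, and the median of the VEGF and adrenomedullin list is -0.27.

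Relatives of the 10 genes in the same families, taken with P4HB, the partner subunit of P4HA1, gave no call. Of 10 tested, edgeR called 0 higher and 0 lower, beside 0.816% and 0.355% of all tested genes. With an unadjusted edgeR p below 0.05 there were 1 higher and 1 lower, beside 8.15% and 8% of all tested genes. DESeq2 called 0 of these genes in either direction, beside 355 higher and 284 lower of the 14100 genes in its fit. The median log2 fold change of the tested relatives was 0.02. NDRG4 was the lowest of these relatives at -0.70 ± 0.32 log2 and 127 counts over all libraries, and KDM3B stood at 0.19 ± 0.10 (SE; edgeR adjusted p = 0.300 and 0.403). Over all lists together, 2 of 110 tested genes other than the 10 were called higher and 2 lower. That was 1.82% in each direction, beside the 0.816% and 0.355% of all tested genes. The lists too were chosen with earlier results of these data known, so these shares are no test of them.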

How the data were processed

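Total RNA of 9 pig livers was sequenced after ribosomal depletion. Per the submitters' processing notes, reads were aligned with STAR to Sscrofa11.1 and counted with HTSeq; DESeq2 is also named. The sources used here give no versions, annotation release or strand setting. The deposited table holds raw counts, 1 column per library, without normalization by the authors. Positions came from RefSeq's table of the same build, in which every one of the 29837 symbols was found.

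Counts went into edgeR 4.0.16 (R 4.3.3) with filterByExpr, which kept 14100 genes, TMM scaling and the robust quasi-likelihood model. Tests were two-sided and adjusted by Benjamini-Hochberg over all tested genes. SE was derived from the F statistic. CPM used TMM-scaled sizes; 2 was added to each count before log2 CPM for correlations, and 0.5 for ratios. The test was checked on simulated data. Alternatives included DESeq2 1.42.0 and limma 3.58.1.

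Genes and lists were chosen with earlier results of these data known. Of each list, called genes and up to 4 more with the smallest p are named. KDR, EMCN, PECAM1, STAB1, STAB2, SPP1, HBB and ALB fall outside this rule and were chosen after their values were seen. The ratios were added later, for pairs with both genes tested. Libraries are labelled as separate animals.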

Additional observations from a re-analysis of the deposited data

Results flagged for a closer look

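Samples standing apart from the rest of their group were sought in 98 groups of values (each named gene and library measure in MIDY and in WT) by Dixon's gap over the range. By chance about 1 in 20 such groups is marked, and 5 of the 98 were. In WT replicate 2, NDRG1 stood highest at 9.34 CPM, while the other 4 WT livers lay at 5.84 to 6.83 CPM. In the same liver P4HA1 stood lowest at 64.1 CPM, while the other 4 WT livers lay at 109 to 117 CPM. HIF1AN was highest in MIDY replicate 1 at 62.0 CPM, with the other 3 MIDY livers at 57.3 to 57.8 CPM. NDRG4 was highest in MIDY replicate 4 at 0.839 CPM, with the other 3 at 0.527 to 0.562 CPM. The scaling factor of WT replicate 3 was the lowest of its group at 0.900, with the others at 0.997 to 1.03.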

How the results depend on the processing

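No paired analysis was possible because the labels give no replicate numbers that pair MIDY with WT pigs. ADM, ANKRD37 and HIF3A rest on few counts. BNIP3 was above 0 in all 17 alternatives and called in 12 of them. With WT replicates 1 and 2 left out together it was 0.49 log2 and not called, and 0 of the hypoxia response genes and 0 of the other targets were called higher, while 1 other target and 0 VEGF and adrenomedullin genes were called lower. DESeq2 called 2 of the genes higher and 1 lower, with P4HA1 at 0.73 and NDRG1 at -0.64 log2, and called 1 of the other targets and 2 VEGF and adrenomedullin genes lower. With total counts alone 0 VEGF and adrenomedullin genes were lower. VEGFA was -0.021 log2 with limma voom. Leaving out 1 library at a time gave log2 ranges of 0.47 to 0.53 for BNIP3, -0.11 to 0.19 for VEGFA, -0.17 to 0.32 for ADM, -0.16 to 0.058 for EGLN3, -0.076 to 0.18 for KDM3A and -0.19 to 0.37 for HIF3A. In those fits 0 to 1 genes were called higher among the hypoxia response genes, the glucose targets and the other targets, and 0 to 1 lower among the other targets and the VEGF and adrenomedullin genes. Over all genes 115 higher and 50 lower became 355 and 284 with DESeq2, 146 and 82 with limma voom, 42 and 24 without WT replicates 1 and 2, and 34 to 152 and 4 to 107 when 1 library was left out. The cause of these shifts was not tested.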
